A study of Mus musculus with 2 samples.

Results

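Accessible sites at the 3' ends of genes were described in mouse adipocytes made in vitro by differentiating 3T3-L1 preadipocytes, an established cell line, up to day 8. DNase-seq maps open chromatin by the cuts of the endonuclease DNase I. A site was an interval of merged peaks that held a peak of each library. It was kept when its centre lay on an autosome, within 1 kb of the 3' end of a protein-coding gene, outside every coding sequence and over 5 kb from every protein-coding transcript start. These conditions were met by 1651 of the 114395 autosomal intervals shared by both libraries (1.44%), out of 117590 on all 21 chromosomes. Of 3593 shared intervals within 1 kb of a gene end, 209 had their centre in a coding sequence and 1733 lay within 5 kb of a start.

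The study had 1 group of 2 libraries, biological replicates 1 and 2, with no undifferentiated or other control library analysed here. Both were labelled as adipocytes of strain C57BL/6J, each pooled several technical replicates, and their donor record was the same. The strain is given only as labelled and was not checked against the cell line. The labels give no date of differentiation, so the spread between the libraries may be partly technical. Replicate 1 held 133695 peaks and replicate 2 held 216556, and hotspots, the broader regions of raised cutting, covered 45.4 and 76.4 Mb. Sequencing depth was unknown. A peak of both libraries lay at the promoter of 5 of 6 adipocyte marker genes (Adipoq, Fabp4, Plin1, Pparg and Cidec, but not Lep). Among preadipocyte or fibroblast markers this held for 3 of 4, all except Dlk1, and among markers of other cell types for 1 of 6 (Snap25, but not Alb, Ptprc, Myod1, Pecam1 or Epcam). Over the 13891 gene ends counted below it held for 8764 (63.1%), so the first 2 counts are not far from that share. The markers are few. In the longer lists of genes of other cell types used below it held for 21 of 73 (28.8%).

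The 3' end of a gene is where the transcript is cut and polyadenylated, downstream of a signal that usually reads AATAAA, and where RNA polymerase II is released after running past the cut. Sequence around these points is rich in A and T. Open chromatin away from promoters often marks enhancers, which bind factors such as C/EBP proteins and PPARγ with its partner RXR in fat cells, or sites of CTCF, a zinc-finger protein that organises chromatin loops. An enhancer can lie before, inside or past the gene it acts on, and a site near the end of a gene need not act on that gene.

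The following sequences are the central 150 bp of 8 sites that lay outside every annotated exon. All are given 5' to 3' on the plus strand of GRCm38, with the motif in capitals. Fabp4_1 (chr3:10203096-10203245) and Lep_2 (chr6:29073926-29074075) are among the highest-ranked sites at genes of the fat cell and held none of the motifs searched. Cidec_1 (chr6:113424316-113424465) and Tex2_1 (chr11:106501446-106501595) show the PPAR-RXR motif. Lpin1_1 (chr12:16535296-16535445) shows the C/EBP motif and Scd1_1 (chr19:44394026-44394175) the AP-1 motif. Ebf1_1 (chr11:45008216-45008365) and Lag3_1 (chr6:124903736-124903885) show the CTCF motif. In Cidec_1, Tex2_1, Lpin1_1 and Ebf1_1 the motif reads on the minus strand.
Fabp4_1: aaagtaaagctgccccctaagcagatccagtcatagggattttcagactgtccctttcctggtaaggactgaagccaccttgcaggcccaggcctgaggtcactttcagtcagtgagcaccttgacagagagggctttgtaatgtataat
Lep_2: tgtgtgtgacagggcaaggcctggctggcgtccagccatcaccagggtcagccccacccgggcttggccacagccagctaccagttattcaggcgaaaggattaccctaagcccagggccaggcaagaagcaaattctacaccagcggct
Cidec_1: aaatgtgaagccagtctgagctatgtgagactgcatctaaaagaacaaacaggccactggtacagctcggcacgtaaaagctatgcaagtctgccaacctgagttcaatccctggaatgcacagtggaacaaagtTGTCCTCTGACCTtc
Tex2_1: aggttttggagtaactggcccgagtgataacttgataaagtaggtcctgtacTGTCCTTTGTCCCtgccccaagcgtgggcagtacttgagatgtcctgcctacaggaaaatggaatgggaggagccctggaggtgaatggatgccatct
Lpin1_1: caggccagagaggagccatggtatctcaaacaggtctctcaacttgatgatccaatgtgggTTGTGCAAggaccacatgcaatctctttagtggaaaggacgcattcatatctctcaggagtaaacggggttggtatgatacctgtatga
Scd1_1: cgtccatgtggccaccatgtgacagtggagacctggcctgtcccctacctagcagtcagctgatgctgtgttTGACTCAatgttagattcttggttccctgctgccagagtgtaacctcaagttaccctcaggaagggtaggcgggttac
Ebf1_1: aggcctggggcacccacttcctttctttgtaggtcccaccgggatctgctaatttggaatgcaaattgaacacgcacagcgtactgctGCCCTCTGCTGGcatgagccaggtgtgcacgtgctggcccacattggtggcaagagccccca
Lag3_1: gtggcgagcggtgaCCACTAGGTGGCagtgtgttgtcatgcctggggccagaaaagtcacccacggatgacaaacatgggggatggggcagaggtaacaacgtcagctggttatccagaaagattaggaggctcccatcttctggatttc

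Accessible sites were more frequent per length of sequence near gene ends than farther away. Density was counted over eligible sequence, which is sequence outside coding exons and over 5 kb from every protein-coding transcript start. It was 71.1 sites per Mb within 1 kb of a gene end (1651 sites in 23.21 Mb), 60.2 from 1 to 10 kb (11291 sites in 187.7 Mb) and 33.6 beyond 10 kb (64196 sites in 1909 Mb). The ratio of the first density to the second was 1.18. With the peaks of replicate 1 alone it was 1.21 and with those of replicate 2 alone 1.26, so it was above 1 in each library. Between-group tests were not possible with 1 group, and the values are descriptions.

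The 2 sides of the gene end differed. Of the 1651 sites, 948 (57.4%, exact binomial 95% interval 55 to 59.8%) had their centre past the end and 703 (42.6%) before it. The interval covers counting error only. Each library alone gave a similar share, 57.3% in replicate 1 and 58.5% in replicate 2 (57.9% ± 0.916, SD, n = 2). Density was 78 sites per Mb (73.1 to 83.1) in the 1000 bp past the end and 63.6 (59 to 68.5) in the 1000 bp before it. The difference went on beyond the 1 kb window. Density was 73.5 sites per Mb past the end and 61 before it from 1 to 2 kb away, 68 and 58.7 from 2 to 5 kb, and 57.5 and 54.9 from 5 to 10 kb. Sites past the end had the same median peak value as sites before it, 48 in replicate 1 and 92 in replicate 2.

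At the gene end itself sites were scarce. In the last 100 bp of the gene the density was 32.8 sites per Mb (40 sites, 23.4 to 44.6), and in the first 100 bp past it 45.6 (57 sites, 34.5 to 59.1). It was 105 sites per Mb (129 sites, 87.7 to 125) from 200 to 300 bp past the end, the highest of the 20 bins of 100 bp. Both libraries showed this shape. Replicate 1 alone had 35.2 sites per Mb in the last 100 bp, 75.1 from 1000 to 200 bp before the end and 104 from 200 to 300 bp past it, and replicate 2 had 63.9, 127 and 178. GC content of the eligible sequence was lowest in the same bin, 35.7% in the last 100 bp against 42.2 to 45.1% in every other bin, and its part in the low density was not tested.

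**Figure D1:**
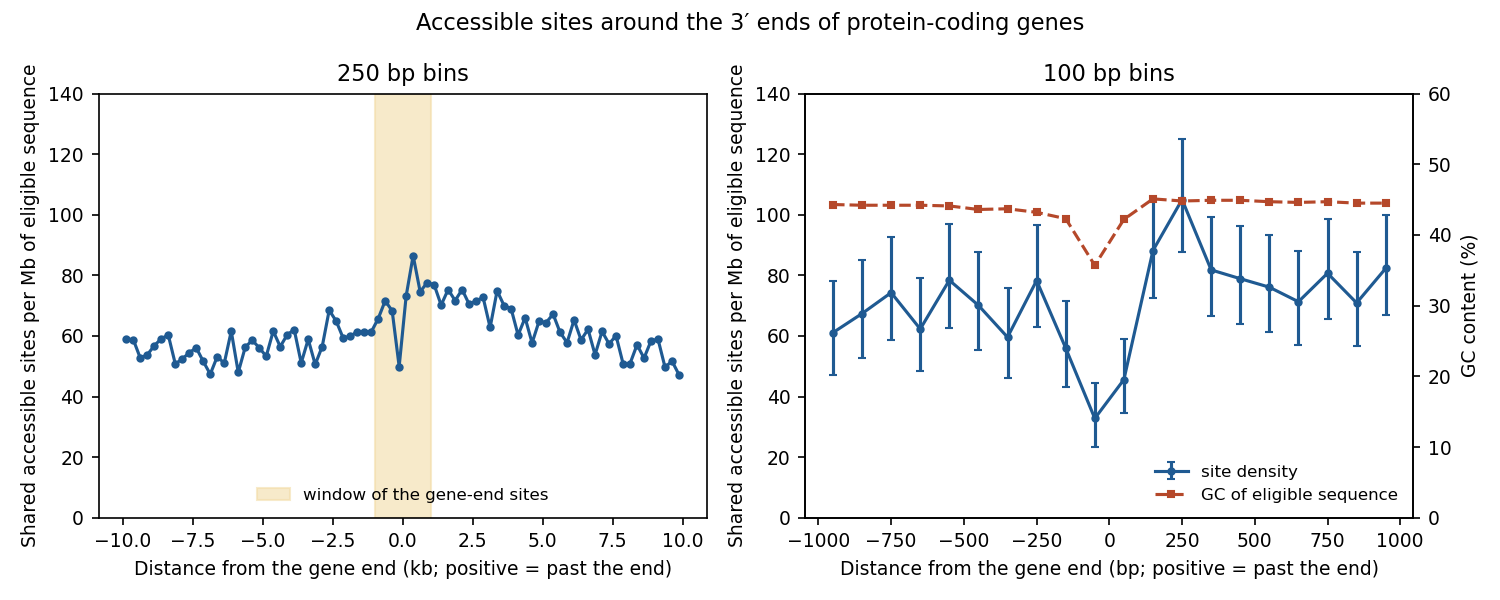
Density of shared accessible sites (sites per Mb of eligible sequence) by distance from the nearest gene end, with positive distances past the end, in 250 bp bins over 10 kb to each side (left; the band marks the 1 kb window) and in 100 bp bins (right; bars are exact binomial 95% intervals). The dashed line gives the GC content of the eligible sequence in percent. Density falls to 32.8 sites per Mb in the last 100 bp and reaches 105 at 200 to 300 bp past the end.

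Only 76 sites (4.6%) had an interval that covered the gene end. Their peak values ranked lower, with median percentiles of 38.3 in replicate 1 and 58.6 in replicate 2, against 54.1 and 71.2 for all 1651 sites. A percentile here is the rank of a peak's value within its own library's list. Where sites are called highest-ranked, they were ordered by the lower of their 2 percentiles. The higher percentile was that of replicate 2 at 1532 of the 1651 sites (92.8%), so this order mostly follows replicate 1. Centres lay between genes at 792 sites (48%), in an exon of a protein-coding gene but not in its coding sequence at 640 (38.8%) and in an intron of a protein-coding gene at 165 (9.99%). The other 54 centres lay in genes of other types, 42 in introns and 12 in exons. No annotated exon base fell in 930 intervals (56.3%).

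Starts of other transcripts lay within 1000 bp of few of the sites, but within 5 kb of more. Within 1000 bp, 54 sites (3.27%) had the start of a gene that is not protein-coding, of which 20 were antisense genes, 8 lincRNAs and 6 miRNAs. A further transcript type of a protein-coding gene, such as a retained intron, started within 1000 bp of 31 sites (1.88%) and within 5 kb of 381 (23.1%). With the 5 kb limit applied to starts of all transcripts of protein-coding genes, 1270 sites remained. These shares were not computed for sites farther from gene ends. Ends of genes on both strands lay within 1000 bp of 91 sites (5.51%).

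The peaks ran from weak to strong. Values, which the authors gave each peak on a scale that stops at 150, ran from 13 to 146 with a median of 48 in replicate 1, and from 23 to 150 with a median of 92 in replicate 2. The top 10% of both lists held 109 of the 1651 sites (6.6%). In replicate 1 alone the top 10% held 6.84% of them, 6.62% of sites 1 to 10 kb away and 6.03% beyond. In replicate 2 alone these shares were 12.2%, 12.6% and 10.5%. Sites 1 to 10 kb from an end ranked much the same, with median percentiles of 55.4 and 71.2, and sites beyond 10 kb ranked lower, at 47.1 and 65.7. Every site lay in a hotspot of each library, and the hotspot was at least 1 kb wide at 129 sites (7.81%) in replicate 1 and 284 (17.2%) in replicate 2. Hotspot widths were not compared with those at other distances. Of the replicate 1 intervals at gene ends, 91.2% had a partner in replicate 2, and 52.4% of those in replicate 2 had a partner in replicate 1. Both shares were slightly higher elsewhere, at 93.7% and 55.4% from 1 to 10 kb and 91.9% and 54.4% beyond 10 kb.

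**Figure D2:**
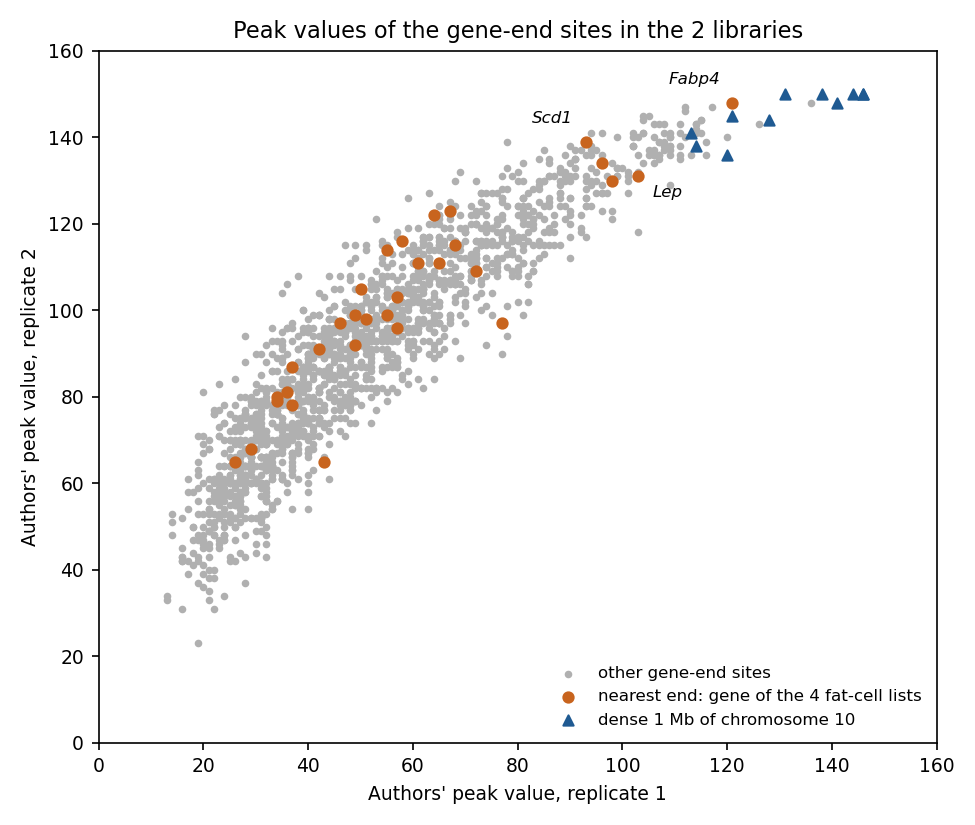
Peak values of the 1651 gene-end sites in replicate 1 (horizontal) and replicate 2 (vertical), on the authors' scale that stops at 150. Orange points are the 31 sites whose nearest end belongs to a gene of the 4 fat-cell lists, triangles the 11 sites on chromosome 10 between 117 and 118 Mb, and grey points the rest. The triangles lie at values of 113 or more in replicate 1, and the Fabp4 site has 121 and 148.

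Gene ends with a site were a minority. Of 13891 gene ends with any eligible sequence in the window, 1507 had at least 1 site (10.8%, 10.3 to 11.4%). Where at least 90% of the window was eligible the share was 12.2% (1205 of 9838). A single site was found at 1315 of the 1507 ends, 2 sites at 147 and 3 or more at 45. The most at any end was 4, at 7 ends, among them those of Fam13a, Lpl, Arrdc3, 1600014C10Rik and Clec2d. With the peaks of 1 library alone the share was 11.4% in replicate 1 and 18% in replicate 2 (14.67% ± 4.65, SD, n = 2).

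Ends with a site lay where other accessible sites were dense. Shared sites within 50 kb, leaving out those in the 1 kb window, numbered 10 in the median around ends with a site and 7 around ends without. The share of ends with a site was 0.753% (9 of 1196) with no other site within 50 kb, 5.46% with 1 to 2, 8.67% with 3 to 5, 11.5% with 6 to 10 and 15.8% (681 of 4297) with 11 or more. Promoters moved with it too. Of ends with a site, 75.6% belonged to a gene with a peak of both libraries within 1000 bp of a start, against 61.6% of ends without. The difference by promoter was larger at ends with few neighbours than at ends with many. The count of other sites can include the gene's own promoter site, so the 2 measures are not separate. With 1 to 2 other sites the share with an end site was 8.1% (5.49 to 11.4%) where the promoter was accessible and 4.46% (3.23 to 5.98%) where it was not. With no other site the shares were 4.69% (3 of 64, 0.977 to 13.1%) and 0.53% (6 of 1132, 0.195 to 1.15%). Both pairs of intervals overlap. With 3 to 5 the shares were 9.34% and 7.77%, and with 6 to 10 they were 12% and 10.1%. With 11 or more they were 16.1% (14.9 to 17.3%) and 14.8% (12.4 to 17.6%). Ends that had the end of an opposite-strand gene within 5 kb held a site in 12.9% of cases (380 of 2949) and other ends in 10.3% (1127 of 10942), with medians of 10 and 7 other sites within 50 kb.

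Genes of the fat cell often had an accessible site at their end. In 4 lists (transcription factors of adipogenesis, storage and breakdown of lipid, synthesis of fatty acids and triglycerides, and adipokines with the insulin response), 24 of 63 eligible ends held a site (38.1%), against 10.8% of all eligible ends. In 6 lists of genes of hepatocytes, skeletal muscle, neurons, blood, endothelium and epithelium, 4 of 73 did (5.48%). The counts depended on the library. With the peaks of replicate 1 alone they were 24 of 63 (38.1%) and 5 of 73 (6.85%), against 11.4% of all eligible ends, and with those of replicate 2 alone 32 of 63 (50.8%) and 9 of 73 (12.3%), against 18%. Both groups also differed in their surroundings. The median number of other sites within 50 kb was 12 for the fat-cell lists, 6 for the others and 8 for all eligible ends, and promoters were accessible at 56 of 63 genes (88.9%), 21 of 73 (28.8%) and 63.1%. Among ends with 11 or more other sites, 21 of 35 fat-cell genes had an end site (60%) and 3 of 14 genes of other cell types (21.4%), against 15.8% of all such ends. At 6 to 10 other sites it was 1 of 15 fat-cell genes (6.67%) and 1 of 26 genes of other cell types (3.85%), both below the 11.5% of all such ends. At 0 to 5 other sites it was 2 of 13 fat-cell genes (15.4%) and 0 of 33 genes of other cell types, against 5.95% of all such ends. The lists were chosen with earlier results known, so these shares are descriptions, and the part of the surroundings in them was not tested.

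**Figure D3:**
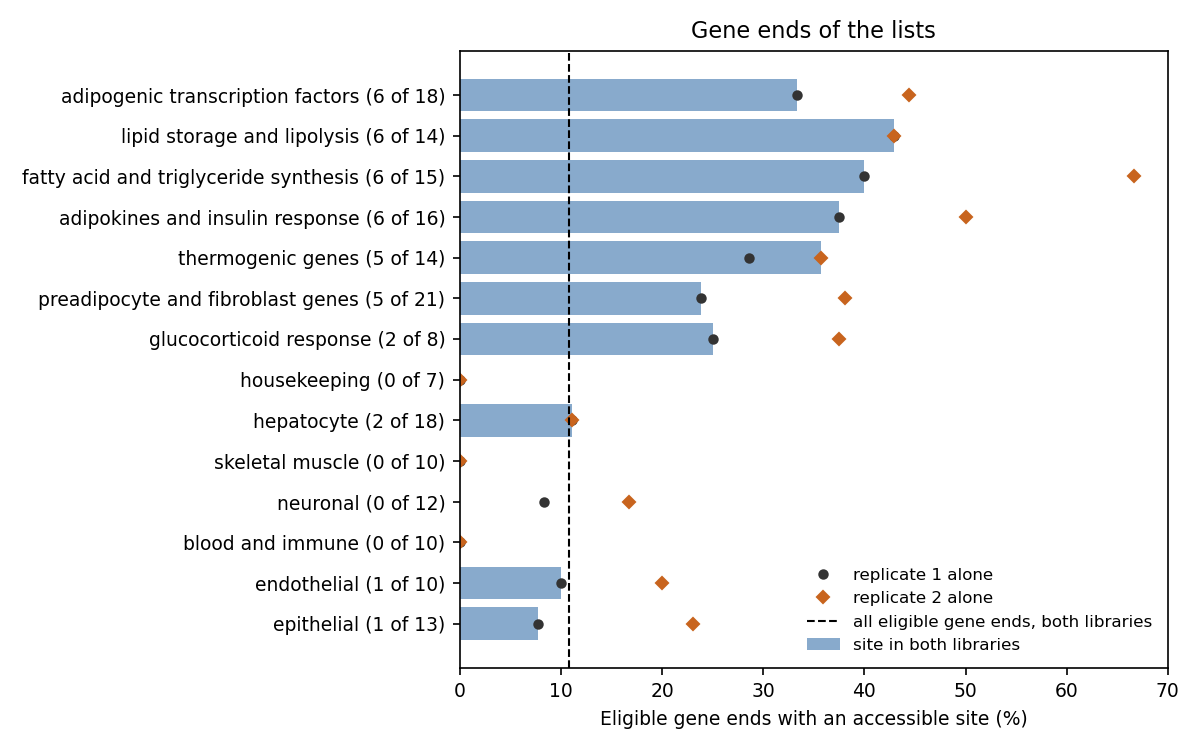
Percent of eligible gene ends with an accessible site in each of the 14 gene lists (bars, sites held by both libraries), with circles and diamonds for each library alone. The dashed line is the share of all eligible ends, 10.8%. The 4 fat-cell lists lie between 33.3 and 42.9%. The housekeeping, skeletal muscle, neuronal and blood lists are at 0, but have only 7, 10, 12 and 10 eligible ends. In the neuronal list 1 end had a site in replicate 1 alone and 2 in replicate 2 alone.

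Among adipogenic transcription factors 6 of 18 eligible ends held a site (33.3%), against 10.8% of all eligible ends. They were those of Rxra, Ebf1, Klf4, Srebf1, Nfia and Tcf7l2. Rxra encodes the partner of PPARγ, and had a site 214 bp past its end (values 42 and 91) and another 756 bp before it (36 and 81). Ebf1, an early B-cell factor that also acts in adipogenesis, had the site printed above 200 bp past its end, with values of 72 and 109. At Klf4 the site lay 512 bp past the end (57 and 96), at Nfia 677 bp (37 and 87) and at Tcf7l2 387 bp (29 and 68). The site of Srebf1 lay nearer to the end of another gene. Pparg was among the 12 eligible genes of the list without a site.

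Lipid storage and lipolysis gave 6 of 14 (42.9%), against 10.8% of all eligible ends. They were those of Plin4, Cidec, Fabp4, Lpl, Lipe and Mgll. Fabp4 encodes a fatty acid carrier, and its site on chromosome 3 from 10203076 to 10203265, with the centre 917 bp past the end, had values of 121 in replicate 1 and 148 in replicate 2. It lay in hotspots of 4248 and 4209 bp. Lpl, the lipase that frees fatty acids from circulating lipoproteins, had 4 sites. They lay 937 bp before the end (51 and 98), 647 bp before it (46 and 97), 223 bp past it (57 and 103) and 753 bp past it (98 and 130), so the strongest was the farthest downstream in each library. Cidec, a protein that enlarges lipid droplets, had a site 243 bp past its end (55 and 99), which held a PPAR-RXR match. The match lay 66 bp from the centre of the site, and repeats made up 35.3% of the central 150 bp. Values were lower at Mgll (43 and 65) and Lipe (26 and 65), which encode lipases. The site of Plin4, a lipid droplet coat protein, lay in a Plin4 exon, with the centre 530 bp inside the gene and 514 bp past the end of Hdgfl2 on the other strand. It spanned chromosome 17 from 56101016 to 56101225 and had values of 115 and 144.

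Fatty acid and triglyceride synthesis gave 6 of 15 (40%), against 10.8% of all eligible ends. With the peaks of replicate 2 alone it gave 10 of 15 (66.7%), against 18% of all eligible ends. Scd1, a desaturase that makes monounsaturated fatty acids, had a site 354 bp past its end with values of 93 and 139, and Scd2 had one 463 bp before its end (77 and 97). Mogat1, an acyltransferase, had sites 472 bp before its end (67 and 123) and 448 bp past it (34 and 80). At Insig1, which holds back sterol regulatory proteins, the site lay 909 bp past the end (64 and 122). At Pck1, the phosphoenolpyruvate carboxykinase of glyceroneogenesis, it lay 228 bp past (49 and 99), and at Lpin1, a phosphatidate phosphatase, 298 bp past (37 and 78).

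Adipokines and the insulin response gave 6 of 16 (37.5%), against 10.8% of all eligible ends. Lep, which encodes the hormone leptin, had 2 strong sites on chromosome 6, from 29073596 to 29073745 before the end and from 29073916 to 29074085 past it. The site before the end had values of 96 and 134, and the site past it 103 and 131. Both lay in the top 10% of each list, although no peak of both libraries lay at the Lep promoter. Adipoq, which encodes adiponectin, had sites 273 bp (50 and 105) and 653 bp (65 and 111) past its end. Angptl4, a secreted inhibitor of Lpl, had 3 sites, 921 bp before the end (68 and 115), 391 bp before it (58 and 116) and 299 bp past it (34 and 79). Single sites were found at Slc2a4, the insulin-responsive glucose transporter (61 and 111), and at Vegfa, a growth factor of blood vessels (55 and 114).

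**Figure D4:**
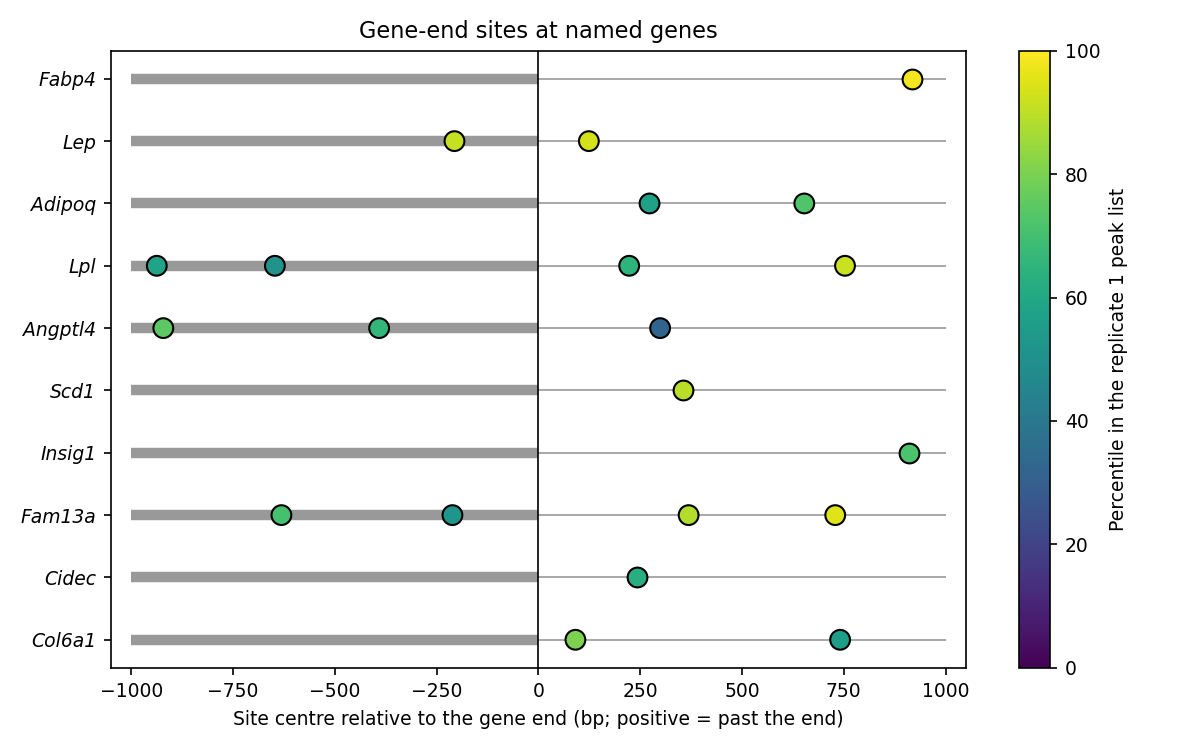
Centres of gene-end sites at 10 named genes, in bp from the gene end with positive values past it, coloured by the percentile of the site's value in the replicate 1 list. The thick grey bar marks the gene. Fam13a and Lpl have 4 sites each, and the Fabp4 site, 917 bp past the end, has the highest percentile shown.

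Thermogenic, preadipocyte and glucocorticoid genes also had ends with a site. Thermogenic genes gave 5 of 14 (Ppargc1b, Ppara, Tbx1, Lhx8 and Kcnk3), with replicate 1 values from 24 at Lhx8 to 60 at Tbx1, and none at Ucp1. In replicate 1 alone it was 4 of 14 (28.6%), against 11.4% of all eligible ends, and in replicate 2 alone 5 of 14 (35.7%), against 18%. A merged interval can differ in centre from that of 1 library, so the count with both libraries can be the higher. The promoter was accessible at only 4 of these 14 thermogenic genes, against 63.1% over all eligible ends. Preadipocyte and fibroblast genes gave 5 of 21 (Col3a1, Col6a1, Col6a2, Pi16 and Acta2). With replicate 1 alone they gave 5 of 21 (23.8%), against 11.4% of all eligible ends. With replicate 2 alone they gave 8 of 21 (38.1%), against 18% of all eligible ends. With both libraries the shares of the thermogenic and preadipocyte lists were 35.7% and 23.8%, against 10.8% of all eligible ends. Col6a1, a chain of collagen VI, had sites 91 bp (75 and 115) and 741 bp (49 and 85) past its end. Glucocorticoid response genes gave 2 of 8 (25%), Per1 (47 and 97) and Zbtb16 (43 and 94), and housekeeping genes 0 of 7. Both counts stand against 10.8% of all eligible ends. Ends with a site in the lists of other cell types included those of G6pc (50 and 97), Tie1 (41 and 87) and Krt8 (109 and 138).

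Outside the lists, Fam13a, a gene linked to fat distribution in human genetics, had 4 sites. The site 729 bp past its end had values of 108 and 139, the one 369 bp past it 90 and 126, and those 211 and 631 bp before it 47 and 96, and 63 and 111. Values of the sites past the Fam13a end were thus higher than those before it, in both libraries. Arrdc3, an arrestin-domain gene, also had 4 sites, with replicate 1 values from 33 to 64 and replicate 2 values from 54 to 114.

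Of the 10 highest-ranked sites, 8 lay in 1 Mb of chromosome 10, from 117 to 118 Mb, a stretch chosen after its values were seen. It held 11 gene-end sites at Lyz1, Cpm, Mdm2 and Slc35e3, with values from 113 to 146 (median 131) in replicate 1 and from 136 to 150 (median 148) in replicate 2. This stretch held 713 shared sites, against a mean of 46.5 per Mb over the autosomes. Mdm2, which encodes the ubiquitin ligase of p53, had 3 of the 11, with values of 141 and 148, 144 and 150, and 128 and 144. The other 2 of the 10 lay at Lars2 and Fabp4. The site at Lars2, a mitochondrial leucyl-tRNA synthetase, had values of 136 and 148, but its hotspot was only 181 bp wide in each library, against 4248 and 4209 bp at Fabp4. Next outside the stretch came the sites of Pigv (126 and 143) and Psat1 (117 and 147), followed at the same rank by Cyp1b1 (115 and 144), Pigq (115 and 141) and the shared site of Hdgfl2 and Plin4 (115 and 144).

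The limit of 1000 bp cut through sites of ordinary and high rank. Just inside it were the sites of Rap1a at 996 bp (63 and 93), Cmtr1 at 998 bp (34 and 76) and Ublcp1 at 1000 bp (64 and 84). Just outside, at 1001 bp, lay sites near Osbpl3 (107 and 135), Csrp2 (66 and 112) and Hdac11 (85 and 122). Some sites at fat-cell genes lay only just past the 5 kb limit from a protein-coding transcript start. The nearest start was 5051 bp away at Cidec, 5139 bp at Klf4, 5214 bp at Slc2a4 and 5405 bp at Fabp4. With a limit of 10 kb, 1115 gene-end sites remained.

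In GC and CpG content the sites resembled those 1 to 10 kb away. Median GC content of the central 150 bp was 50% in both, against 48% beyond 10 kb, and the mean number of CpG was 1.96, 2.01 and 1.74. Repeats made up more than 50% of the sequence in 4.36% of gene-end sites, 6.48% of sites 1 to 10 kb away and 4.56% of sites beyond 10 kb. Both strands of these 150 bp were scanned for motifs, and a site could hold several. CTCF matches were found at 161 gene-end sites (9.75%, 8.36 to 11.3%), close to the 9.29% of sites 1 to 10 kb away and above the 5.17% (5 to 5.35%) of sites beyond 10 kb. Gene-end sites with a CTCF match had median percentiles of 68.7 and 75.5, above those of all gene-end sites. In the top 10% of both lists were 5 of the 161 (3.11%, 1.02 to 7.1%). That interval includes the share of all gene-end sites, 6.6% (109 of 1651). The match read along the gene at 94 sites (58.4%, 50.4 to 66.1%) and against it at 67. Lag3_1, 550 bp past the end of Lag3, was the highest-ranked of them outside exons, with values of 109 and 136.

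The other motifs differed less between the distances in percentage points than CTCF did. C/EBP (TTGCNNAA) was matched at 209 sites (12.7%, 11.1 to 14.4%), against 11.6% at 1 to 10 kb and 13.9% beyond. AP-1 (TGANTCA) was matched at 155 (9.39%, 8.02 to 10.9%), against 9.05% and 10.7%. PPAR-RXR was matched at 19 sites (1.15%, 0.694 to 1.79%), against 0.965% and 0.949%, and the highest-ranked of these outside exons was Tex2_1, 626 bp past the end of Tex2, with values of 105 and 137 and the start of a snoRNA gene at 276 bp. EBF (CCCNNGGGA) gave 3.45% (2.63 to 4.45%), against 3.96% and 3.78%, and TEAD (ACATTCC) 3.03%, against 2.83% and 3.19%. RUNX (TGTGGTT) gave 5.63% (4.57 to 6.86%), against 4.61% at 1 to 10 kb and 4.25% beyond. SP1 (GGGCGGG) gave 2.36% (1.69 to 3.22%), against 2.21% and 1.54%, so RUNX and SP1 were above the share beyond 10 kb by more than counting error. STAT (TTCNNNGAA) gave 4.78% (3.81 to 5.93%), against 5.58% and 6.19%, and was below it. FOX (TGTTTAC) gave 2.97% (2.2 to 3.9%), against 2.31% and 3.16%. ETS (CCGGAAG), MEF2, SRF, NF1 and the glucocorticoid receptor motif were each at 1.51% or less. The poly(A) signal AATAAA was found on the strand of the gene at 85 sites (5.15%) and on the opposite strand at 84 (5.09%). A match is a stretch of letters and does not show that a factor was bound.

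**Figure D5:**
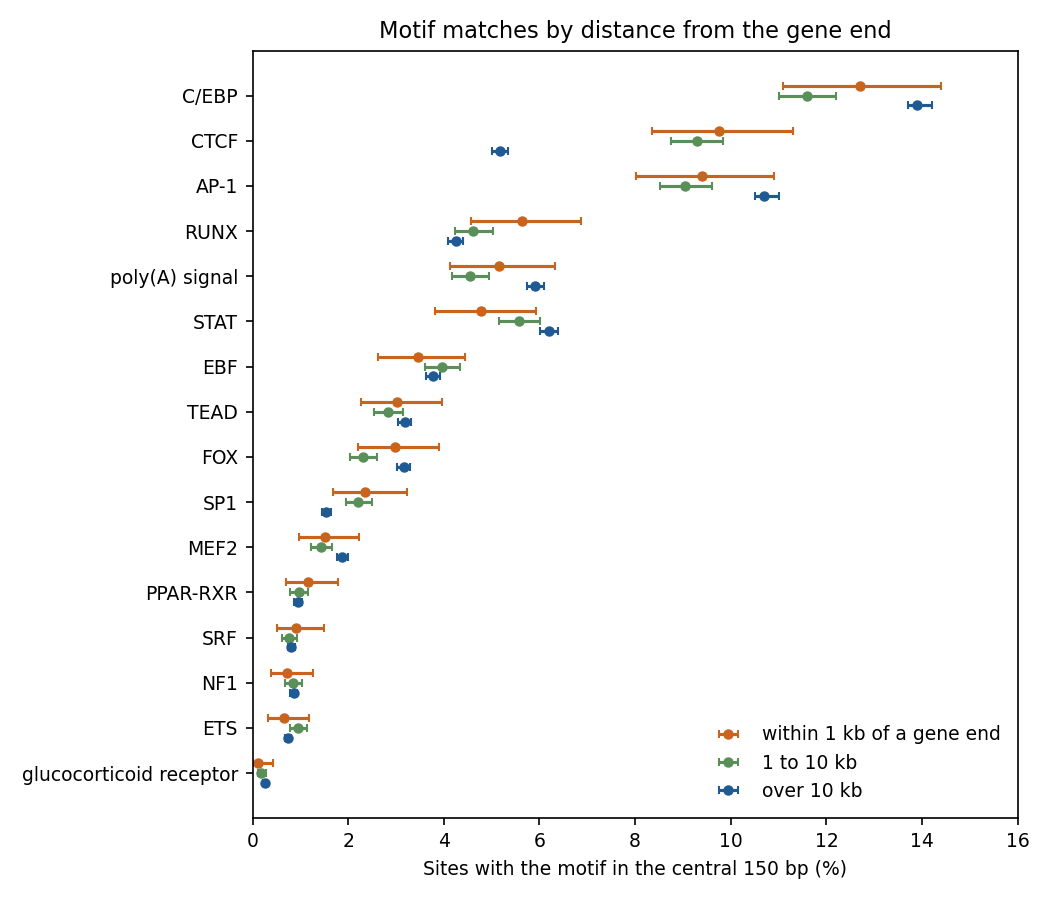
Percent of sites with each of 16 motifs in the central 150 bp, for sites within 1 kb of a gene end, 1 to 10 kb away and over 10 kb away. Bars are exact binomial 95% intervals, and the poly(A) signal was counted on the strand of the gene. CTCF is the motif at which sites within 10 kb of an end stand farthest above those beyond, at 9.75 and 9.29% against 5.17%.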

How the data were processed

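DNase-seq peaks and hotspots of 2 libraries were used as deposited. Per the labels, the assembly was mm10. The authors called both kinds of region in each library separately, per the text lists deposited with them, while caller, aligner and depth are not given there. Each deposited peak carries a signal value (whole numbers from 1 to 150) whose scaling is not stated, so values were used for ranks inside a library. Each deposited hotspot carries a −log10 q value, and here hotspot widths were used. Identical duplicate lines (20 and 33 peaks) were counted once.

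Peaks of both libraries were merged at an overlap of 1 bp and placed on GRCm38 with GENCODE release M21 (Python 3.11.15, numpy 2.4.6, pandas 2.3.3, scipy 1.17.1, matplotlib 3.10.9). Density is sites per Mb of eligible sequence, each base assigned to its nearest gene end. Intervals are exact binomial 95% intervals over sites or ends, for counting error only. The counting of density was tested on simulated sites of known density, on a single chromosome and at whole-number density ratios. The tolerance was nearly as large as the excess of the ratio reported here. The share past the end was not tested in this way. Gene symbols of 14 lists and 16 consensus motifs were used. The members, lists and motifs were chosen with earlier results of these data known. Genes named are list members with a site nearest their end (for the lists of other cell types, the 2 highest-ranked), the 10 highest-ranked sites, the 5 genes with most sites, 3 sites just inside and just outside the limit, and the highest-ranked exon-free site with each motif. Not all of these are reported. The next-ranked sites outside chromosome 10 from 117 to 118 Mb were chosen after their values were seen. Alternatives changed the window, the distance from starts, the overlap, the peak lists, the annotation and the centre, and left out each library in turn.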

Additional observations from a re-analysis of the deposited data

How the results depend on the processing

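No paired analysis was possible because the study has 1 group and no test. The number of gene-end sites was 829 with a window of 500 bp, 3138 with 2000 bp, 902 with the stronger 50% of each library's peaks and 2512 with the end of any protein-coding transcript, and ran from 1813 to 3170 with 1 library left out. The percent of eligible gene ends with a site was 6.01 at 500 bp, 17.5 at 2000 bp and 6.21 with the stronger 50% of peaks, and ran from 11.4 to 18 with 1 library left out. The percent of sites past the end was 59.3 at 500 bp, 58.9 with sites over 2 kb from every start, 58.5 with no base in a coding sequence and 58.6 with starts of all transcripts of protein-coding genes, and ran from 57.3 to 58.5 with 1 library left out. The ratio of site density within 1 kb to that at 1 to 10 kb was 1.22 over 2 kb from every start, 1.15 over 10 kb and 1.12 with starts of all transcripts, and ran from 1.21 to 1.26 with 1 library left out. The causes of these shifts were not tested, beyond the wider or narrower windows and peak lists themselves. The share past the end stayed above 50% and the density ratio above 1 in each setting for which they were computed, which leaves out ends of any transcript for both and the other windows for the ratio. Leaving out chromosome 10 from 117 to 118 Mb, an alternative chosen after seeing the data, gave 1640 sites, 10.8% of ends, 57.6% past the end and a ratio of 1.18. The unknown depth, the 2 libraries and the saturating values limit what these counts can show.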

Other observations

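Gene-end sites made up between 0.814% of shared sites, on chromosome 13, and 2.06%, on chromosome 19. Chromosome 11 had 145 of them among 8197 shared sites (1.77%) and 1016 eligible ends, and chromosome 7, with 1066 eligible ends, had 86 (1.39%).

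Of the 45 ends with 3 or more sites, 39 had at least 10 other shared sites within 50 kb, with a median of 19. The lowest number was 2, at Serpinb5, and the next 6, at Atp6v1g3, each with 3 sites. At Cpm and Mdm2, on the chromosome 10 stretch described above, the number was 149. These ends were chosen after their values were seen.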
